A study of Homo sapiens with 6 samples.

Results

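To describe how glutamine metabolism genes changed after knockdown of the lncRNA GLCC1, 9 enzymes that make glutamine or use it and its product glutamate were followed through the RNA-seq libraries of a colorectal cancer cell line. The members were taken by gene symbol: GLUL, GLS2, GLUD1, GOT1, GOT2, GFPT1, PPAT, CAD and GMPS. All 9 were among the 56638 symbols of the count files and among the 23074 genes that held enough counts to be tested. Glutamine carries a spare amide nitrogen. It is built from glutamate and ammonia by glutamine synthetase, opened again to glutamate by glutaminases, and drawn on by amidotransferases that pass its nitrogen to purines, pyrimidines and hexosamines. Glutamate in turn gives carbon to the TCA cycle as 2-oxoglutarate. In proliferating colon cancer cells glutamine is a major source of nitrogen and carbon, and c-Myc, the transcription factor that this study connects to GLCC1, is a known activator of several genes of this pathway.

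There were 6 libraries in all, 3 labelled control siRNA (a non-specific siRNA) and 3 labelled lncRNA-AF339830 siRNA, the first name of GLCC1, called GLCC1 siRNA here. Titles number the libraries of each group from siRNA1 to siRNA3, and these numbers are called replicates here. The study also uses siRNA1 and siRNA2 as names of different GLCC1 siRNAs, and whether the titles mean these is not stated. Cells of both groups received a siRNA, and no other treatment is named. The labels name SW480 cells of passage 16 to 19, whereas the methods of the study name DLD-1 cells, and both are lines of human colorectal carcinoma. The study states in general that its experiments used independent biological replicates, but nothing says of these 3 libraries a group whether they were separate cultures, so the p-values measure the spread between these libraries, which may be technical.

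The library labels contradict themselves. Title, source name and genotype put each library in the group used here, but the submitters' library identifier of each control siRNA library carries the tag AF123 and that of each GLCC1 siRNA library the tag NC. If the identifiers were right, every difference below would keep its size and change its sign. The targeted RNA could not settle this, since 0 rows of the files bear its name. FARP1, whose span in the genome holds GLCC1 sequence on the same strand, was between 109 and 113 CPM (counts scaled by library size) in the libraries labelled control siRNA and between 63.2 and 65.6 CPM in those labelled GLCC1 siRNA. LDHA, the lactate dehydrogenase gene that the study examines as a target of c-Myc under GLCC1 knockdown, averaged 2942 ± 25.6 CPM (SD, n = 3) in the libraries labelled control siRNA and 849.7 ± 60.1 CPM (SD, n = 3) in those labelled GLCC1 siRNA. Groups were taken from the titles and not from these values. Gene counts per library summed to 11948790 to 19042516 read pairs, and GLCC1 siRNA replicate 2 was the shallowest. That library also had the highest share of read pairs on no gene, 14.2% against 11.2% to 12.7% in the other 5 libraries. All 7 colon epithelium markers examined (EPCAM, CDH1, CDX2, VIL1, KRT8, KRT18 and KRT19) were above 10 CPM on average. Their summed level was 5511 to 6030 CPM in the control siRNA libraries and 2192 to 2591 CPM in the GLCC1 siRNA libraries. The keratins KRT8, KRT18 and KRT19 carried most of this sum and fell by 1.61, 1.82 and 1.34 on the log2 scale, whereas CDH1 fell by 0.53 and EPCAM by 0.30, and CDX2 (-0.24) and VIL1 (0.21) did not pass the test. Of 10 markers of other cell types, PTPRC, PECAM1, COL1A2 and DCN had no count in any library, and the whole list summed to 16.6 to 19.2 CPM in the control siRNA libraries and 10.6 to 14.3 CPM in the GLCC1 siRNA libraries. COL1A1 carried most of this sum. It fell by 0.86 on the log2 scale, from a mean of 13.4 to 7.38 CPM, and passed the test. CD14 averaged 3.29 and 4.39 CPM in these groups and did not pass. The fall in keratin counts moved with each change reported below, and its part in them was not tested. In such bulk samples, fewer cells of a type and less RNA per cell cannot be told apart.

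Among the 9 members, those of glutamine synthesis and glutamate oxidation had the largest changes. GLUL and GLUD1 fell below 0.5-fold in the GLCC1 siRNA libraries, GFPT1 fell to 0.551-fold, and GOT2 and CAD fell to 0.781-fold and 0.782-fold. GMPS was the member that rose, to 1.28-fold. In GLS2, GOT1 and PPAT the change did not pass the test. Thus 6 of the 9 members had an adjusted p under 0.05, 5 of them lower and 1 higher, and 2 of them (GLUL and GLUD1) changed at least 2-fold. At least 2-fold and called were 7.78% of all genes, and 574 of the 10378 genes averaging 10 CPM or more. Among all genes tested, 31.6% passed (14.9% higher and 16.7% lower). Of the 10378 genes averaging 10 CPM or more, as all members do, 49.9% passed, and the 6 of 9 members are to be read against that share. When libraries were scaled by their totals alone, the share of higher genes among those called went from 47.0% to 62.9% and the median log2 fold change of all genes moved up by 0.12, whereas each member kept its direction. A negative log2 fold change means lower after GLCC1 siRNA, and adjusted p-values are from the quasi-likelihood test of edgeR over all genes tested.

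**Figure D1:**
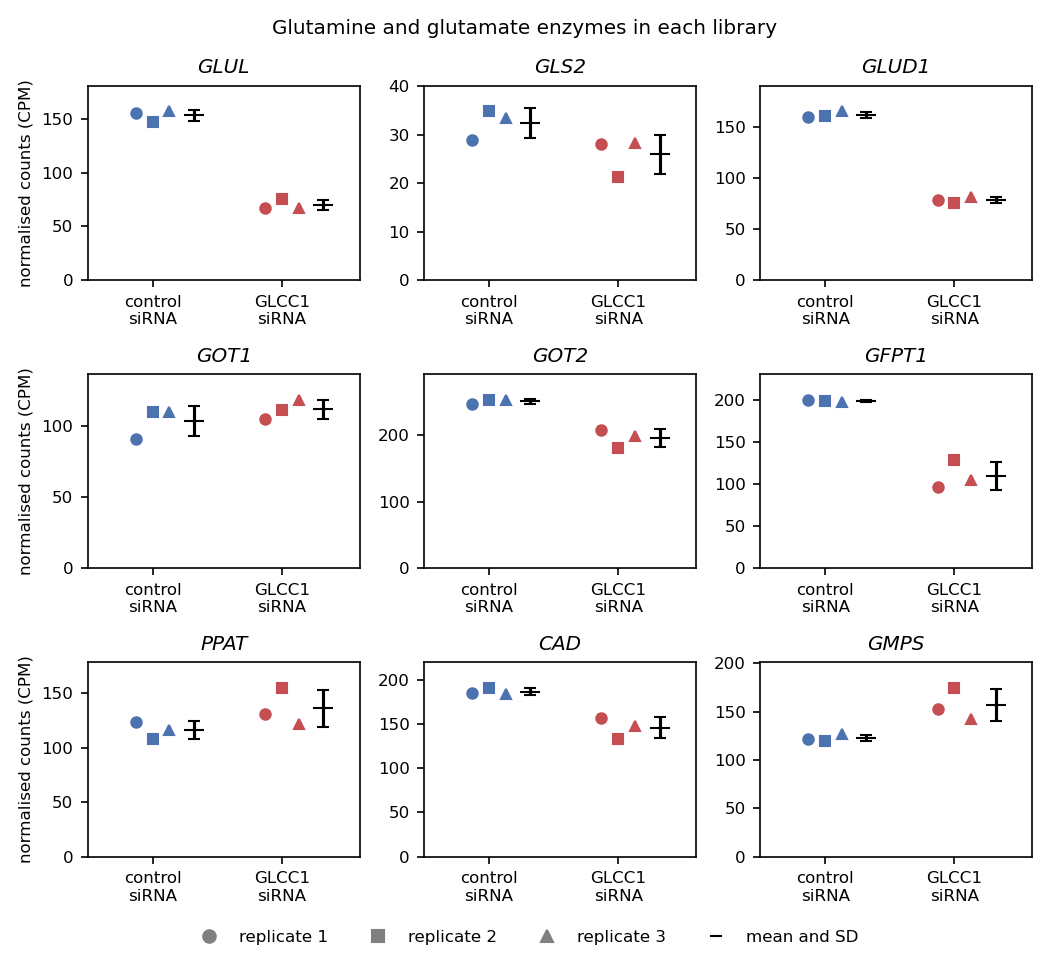
Normalised counts (CPM, y axes from 0) of the 9 enzymes in each of the 6 libraries, with the symbol giving the replicate and the bar the mean and SD over 3 libraries. The points of GLUL, GLUD1 and GFPT1 lie far below the controls in all 3 GLCC1 siRNA libraries, and those of GOT1 and PPAT overlap between the groups.

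GLUL encodes glutamine synthetase, the enzyme that forms glutamine from glutamate and ammonia. The gene lies on chromosome 1 of hg19 from 182347233 to 182361341 on the minus strand (ENSG00000135821). In the control siRNA libraries it had 156, 147 and 157 CPM, and in the GLCC1 siRNA libraries 67.7, 75.6 and 67.0 CPM. The highest of the latter was below the lowest control, with a gap many times the spread within either group. The means were 153 ± 5.52 CPM (SD, n = 3) and 70.1 ± 4.75 CPM (SD, n = 3), a log2 fold change of -1.13 ± 0.09 (SE) with adjusted p = 5.8e-07 (edgeR), and over 12 alternative analyses the log2 fold change was between -1.18 and -1.01. The pseudogenes GLULP3, GLULP4, GLULP5 and GLULP6 had no count in any library.

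The opposite reaction is carried out by the glutaminases. GLS2, the liver-type enzyme (chromosome 12, 56864728 to 56882198, minus strand), was the least abundant member by counts, with 268 to 632 per library. Its levels were 28.9, 34.8 and 33.4 CPM in the controls and 28.1, 21.3 and 28.4 CPM in the GLCC1 siRNA libraries, so that the groups only just did not overlap. Its log2 fold change of -0.32 ± 0.12 (SE) did not pass the test (adjusted p = 0.068 from edgeR). Without GLCC1 siRNA replicate 2, its lowest library, the change shrank to -0.20 and, with a smaller error, passed (adjusted p = 0.037 from edgeR). SPRYD4 overlaps GLS2 on the opposite strand at a mean of 6.68 CPM, and without strand in the counting, read pairs that lie on both genes would be counted on neither.

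Glutamate dehydrogenase, encoded by GLUD1, turns glutamate into 2-oxoglutarate in the mitochondrion. GLUD1 (chromosome 10, 88809959 to 88854600, minus strand) had 159, 160.3 and 165 CPM in the controls and 78.6, 76.0 and 81.4 CPM in the GLCC1 siRNA libraries. Every GLCC1 siRNA library was near the same lower level and the groups were far apart. The log2 fold change was -1.04 ± 0.08 (SE) with adjusted p = 6.3e-07 (edgeR). GLUD2, an intronless copy of GLUD1 on chromosome X, fell by 0.99 ± 0.10 (SE) in log2 terms with adjusted p = 5.8e-06 (edgeR). Reads may be split between these genes. The coding sequences of both genes are 97.6% identical, and 31.7% of all 50-base words of the GLUD2 transcript also stand in that of GLUD1. Such a word is shorter than the paired reads described by the study, so this share does not measure how many reads fit both genes. The counts of GLUD2 were 0.381, 0.385 and 0.389 of those of GLUD1 in the control libraries and 0.393, 0.371 and 0.423 of them in the GLCC1 siRNA libraries, a nearly fixed share. Whether the GLUD2 counts are reads of GLUD1 was not tested. Another copy, the pseudogene GLUD1P3, went the other way, with 33, 35 and 28 read pairs in the controls and 64, 52 and 54 in the GLCC1 siRNA libraries (log2 fold change 0.82 ± 0.21 SE, adjusted p = 0.0094 from edgeR).

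The aspartate aminotransferases exchange the amino group of glutamate with oxaloacetate, GOT1 in the cytosol and GOT2 in the mitochondrion, and together they run the malate-aspartate shuttle. GOT2 (chromosome 16, 58741035 to 58768246, minus strand) had 247, 254 and 253 CPM in the controls and 208, 181 and 199 CPM in the GLCC1 siRNA libraries. It was lower in 3 of 3 libraries, with a log2 fold change of -0.36 ± 0.08 (SE) with adjusted p = 0.0039 (edgeR). GOT1 (chromosome 10, 101156627 to 101190381, minus strand) had 90.8, 109 and 109.5 CPM in the controls and 105, 111 and 118 CPM in the GLCC1 siRNA libraries. The lowest GOT1 value was control siRNA replicate 1 and the groups overlapped, with a log2 fold change of 0.11 ± 0.10 (SE) with adjusted p = 0.42 (edgeR). Between the isozymes, GOT1 had 0.368, 0.431 and 0.434 of the counts of GOT2 in the controls and 0.503, 0.616 and 0.595 of them in the GLCC1 siRNA libraries. Such a ratio is free of any scaling between libraries. It was higher in 3 of 3 GLCC1 siRNA libraries by 0.47 on the log2 scale (two-sided exact permutation p = 0.1, adjusted p = 0.1 over 6 ratios), which is the smallest p that 3 libraries against 3 allow. The transcripts of GOT1 and GOT2 share no 50-base word.

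The remaining 4 members use the amide nitrogen of glutamine. GFPT1 starts the hexosamine pathway, which makes UDP-GlcNAc for glycosylation. The gene (chromosome 2, 69546912 to 69614382, minus strand) had 200.5, 199 and 197 CPM in the controls, whereas the GLCC1 siRNA libraries had 96.1, 128 and 105 CPM. The controls were tightly grouped and GLCC1 siRNA replicate 2 lay above the other 2 GLCC1 siRNA libraries, but still far below the controls. The log2 fold change was -0.86 ± 0.10 (SE) with adjusted p = 2.9e-05 (edgeR).

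CAD carries out the opening steps of pyrimidine synthesis, beginning with carbamoyl phosphate from glutamine. It lies on chromosome 2 from 27440237 to 27466811 on the plus strand. CAD had 184, 191 and 183 CPM in the controls and 156, 133 and 147 CPM in the GLCC1 siRNA libraries, with no overlap and a log2 fold change of -0.35 ± 0.08 (SE) with adjusted p = 0.0053 (edgeR). GMPS, which forms GMP from XMP with nitrogen from glutamine, lies on chromosome 3 from 155588439 to 155661809 on the plus strand. It changed in the other direction, from 122, 119.9 and 127 CPM in the controls to 153, 175 and 143 CPM after GLCC1 siRNA. The log2 fold change was 0.35 ± 0.09 (SE) with adjusted p = 0.0084 (edgeR), and without control siRNA replicate 2 the adjusted p was 0.052. The pseudogene GMPSP1, at 99 to 186 read pairs per library, had a log2 fold change of 0.34 (adjusted p = 0.075 from edgeR).

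PPAT is the amidotransferase that commits PRPP to purine synthesis. PPAT (chromosome 4, 57259528 to 57301781, minus strand) had 124, 108 and 117 CPM in the controls and 131, 155 and 122 CPM in the GLCC1 siRNA libraries. The groups overlapped by GLCC1 siRNA replicate 3 alone, and the log2 fold change of 0.23 ± 0.10 (SE) did not pass the test (adjusted p = 0.11 from edgeR). It passed with library totals as the only normalization (0.35) and without GLCC1 siRNA replicate 3 (0.30). PAICS, which encodes a later enzyme of the same pathway, starts next to PPAT on the opposite strand. It had 709, 677 and 698 CPM in the controls and 502, 560.0 and 516 CPM after GLCC1 siRNA, which is a log2 fold change of -0.40 ± 0.08 (SE) with adjusted p = 0.0011 (edgeR). PPAT thus had 0.175, 0.159 and 0.167 of the counts of PAICS in the controls and 0.261, 0.277 and 0.236 of them in the GLCC1 siRNA libraries, a ratio higher by 0.63 on the log2 scale in 3 of 3 libraries (two-sided exact permutation p = 0.1, adjusted p = 0.1).

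These neighbours are shown with their promoter because they share it and did not change alike. In RefSeq (GRCh38.p14) the window of 250 bases before to 50 after the start of PPAT shares 236 bases with the same window of 1 of the 3 listed starts of PAICS, and these starts are 137 bases apart. The window holds the E-box CACGTG, the palindrome that c-Myc binds together with MAX, shown in capitals. It lies on the minus strand at chr4:56435566-56435865.
PPAT promoter: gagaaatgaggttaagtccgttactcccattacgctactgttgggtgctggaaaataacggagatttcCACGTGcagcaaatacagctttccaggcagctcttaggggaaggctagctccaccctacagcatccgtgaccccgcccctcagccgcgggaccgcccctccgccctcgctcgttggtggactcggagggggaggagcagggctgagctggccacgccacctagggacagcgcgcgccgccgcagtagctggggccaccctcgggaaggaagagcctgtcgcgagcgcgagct
All 9 members had at least 1 such window, 10 windows in all, and PPAT was the only member with CACGTG in it. Of all 35116 promoter windows, 7.26% hold this word. The match is a description of the window and says nothing of binding in these cells.

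**Figure D2:**
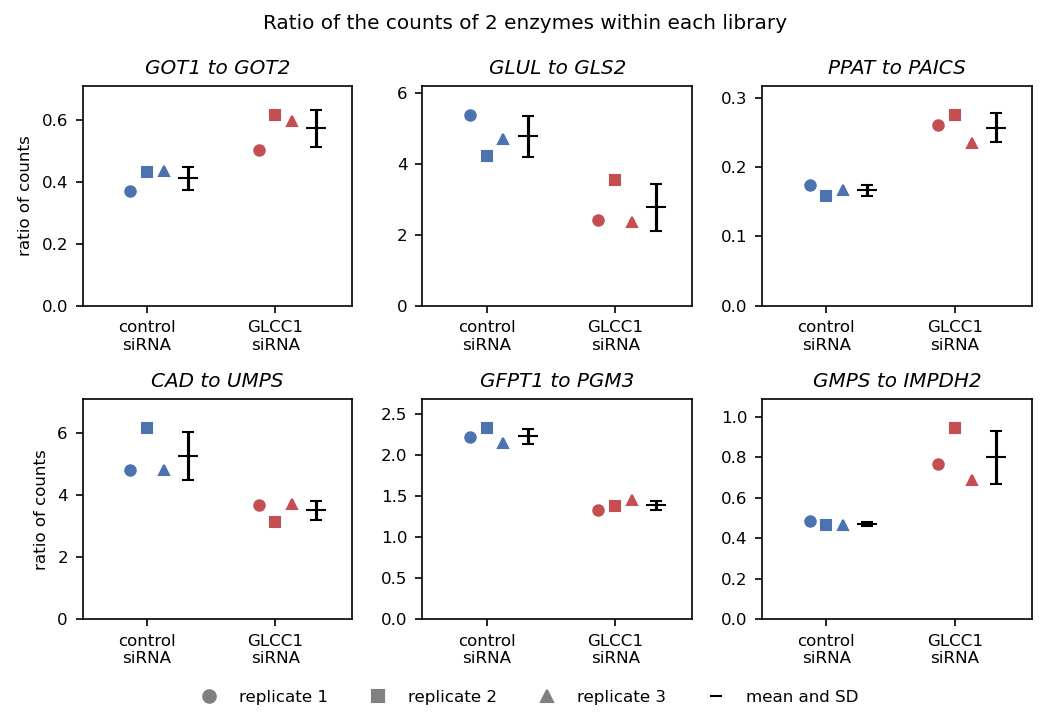
Ratio of the read pair counts of 2 enzymes within each library (y axes from 0), for 3 control siRNA and 3 GLCC1 siRNA libraries, with mean and SD. In each of the 6 panels the groups do not overlap, with GOT1 to GOT2, PPAT to PAICS and GMPS to IMPDH2 higher and GLUL to GLS2, CAD to UMPS and GFPT1 to PGM3 lower in the GLCC1 siRNA libraries.

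Each amidotransferase was also set against another enzyme of its own pathway, which was not always the next step. GMPS had 0.482, 0.466 and 0.462 of the counts of IMPDH2, the enzyme that makes its substrate XMP, in the controls and 0.767, 0.943 and 0.685 of them in the GLCC1 siRNA libraries. This was the widest gap of the ratios that rose, 0.75 on the log2 scale. The ratio of GFPT1 to PGM3, a later hexosamine enzyme, was 2.22, 2.33 and 2.15 in the controls and 1.34, 1.38 and 1.45 in the GLCC1 siRNA libraries. CAD to UMPS, the last step of UMP synthesis, was lower by 0.58 on the log2 scale, and GLUL to GLS2 by 0.80. Nearer steps fell as well, GNPNAT1, right after GFPT1, by 1.03 and DHODH, between CAD and UMPS, by 0.42. No ratio to these was taken, so the ratios hold for the named partners only. All 6 ratios gave a two-sided exact permutation p = 0.1 (adjusted p = 0.1). For single genes, the share of all whose own levels did not overlap between the groups was 46.3%. No such share was taken for ratios of other gene pairs, so the 6 ratios have no background of their own.

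The other genes of the pathway were taken from lists made by function, 66 symbols in all, of which 64 could be tested. Of these, 8 rose, 21 fell and the remainder did not pass, which is 45.3% called at a median log2 fold change of -0.16. Among all genes the share called was 31.6% at a median of 0.03, and among those averaging 10 CPM or more 49.9% at a median of -0.07. Purine synthesis had the most genes that fell, 6 of 10, with a list median of -0.40. Of all genes tested 16.7% fell, and of those averaging 10 CPM or more 3092 of 10378. PRPS2, which makes PRPP, the substrate of PPAT, fell by 1.45 on the log2 scale (105.9, 110.3 and 110.5 CPM against 38.4, 40.6 and 40.3 CPM). ADSL fell by 0.60 and PFAS, another glutamine-dependent enzyme of this pathway, by 0.56, whereas ADSS, at the branch to AMP, rose by 0.67. Thus PPAT and GMPS, at 0.23 and 0.35, stood beside a list in which most genes were lower. In pyrimidine synthesis, 2 of 5 genes fell and 1 rose. CMPK1, the kinase for UMP and CMP, had 172, 166 and 163 CPM in the controls and 52.0, 67.3 and 53.1 CPM in the GLCC1 siRNA libraries, a fall of 1.54, and DHODH fell by 0.42, a call that was lost in 1 of 12 alternatives. CTP synthase 2 (CTPS2), which uses glutamine to aminate UTP, rose from 24.7, 24.2 and 23.2 CPM to 44.2, 52.3 and 43.0 CPM, a log2 fold change of 0.95.

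The hexosamine list had 2 genes of 6 that fell and 1 that rose, where 49.9% of all genes averaging 10 CPM or more were called. GNPNAT1, the acetyltransferase that acts right after GFPT1, fell by 1.03 on the log2 scale, from 75.2, 70.0 and 72.9 CPM to 30.8, 45.2 and 31.5 CPM. NAGK, the salvage kinase, fell by 0.56, and OGT, which transfers the finished sugar to proteins, rose by 0.40. A further list of 8 enzymes, of which 7 use glutamine and CPS1 uses free ammonia, had 2 that rose and 3 that fell. Among all genes tested, 14.9% rose and 16.7% fell, and among the 10378 averaging 10 CPM or more 2088 rose and 3092 fell. Asparagine synthetase (ASNS) rose by 0.66, from 123, 132 and 137 CPM to 182, 222 and 216 CPM. NADSYN1 fell by 0.42 and the glutaminyl-tRNA synthetase gene QARS by 0.34, the latter not past the threshold in 3 of its 12 alternatives.

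Of 19 enzymes that convert glutamate, 2 were called higher and 4 lower. Called were 31.6% of all genes tested and 49.9% of those averaging 10 CPM or more, as most of this list do. ALDH18A1, which reduces glutamate on the way to proline and ornithine, fell by 0.85 (154 ± 2.59 CPM in the controls, SD, n = 3, and 85.3 ± 3.12 CPM, SD, n = 3). ALDH5A1, the last enzyme of the GABA shunt, fell by 1.21. The alanine aminotransferases rose, GPT2 by 0.40 and GPT by 1.26, the latter at no more than 6.05 CPM in any library. Without GLCC1 siRNA replicate 2, 6 genes of this list were called higher and 8 lower. Calls over all genes also rose in that setting, from 7293 of 23074 to 9920 of 22470. In the malate-aspartate shuttle MDH2, the mitochondrial malate dehydrogenase, fell by 0.75 beside GOT2, while MDH1, the cytosolic one, named after its values were seen, had a log2 fold change of -0.09 (adjusted p = 0.39 from edgeR). The aspartate-glutamate carrier SLC25A12 rose by 0.33, but this call did not hold in 6 of its 12 alternatives.

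Among 16 transporter genes, 14 were tested, of which 4 fell and 1 rose, where 16.7% of all genes fell and 14.9% rose. Of the 10378 genes averaging 10 CPM or more, 3092 fell and 2088 rose. These counts depended on the setting, with 2 to 4 genes higher in 8 of the 12 alternatives and 2 lower without control siRNA replicate 2. SLC38A1, a sodium-coupled glutamine importer, fell by 0.57 on the log2 scale (401, 353 and 401 CPM against 238, 297 and 244 CPM). SLC7A7 fell by 0.80 and the mitochondrial glutamate carrier SLC25A22 by 0.52, which without control siRNA replicate 2 did not pass (adjusted p = 0.057 from edgeR). SLC7A11, which exports glutamate in exchange for cystine, rose by 0.78, from 62.4, 57.7 and 58.9 CPM to 96.5, 119.7 and 91.0 CPM. SLC1A5, the main glutamine importer of many cancer cells, was chosen for mention after its values were seen. It had 170.3, 179 and 184 CPM in the controls and 219, 188 and 224 CPM in the GLCC1 siRNA libraries, without overlap, a log2 fold change of 0.24 at an adjusted p = 0.051 from edgeR, and it passed in 6 of 12 alternatives.

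**Figure D3:**
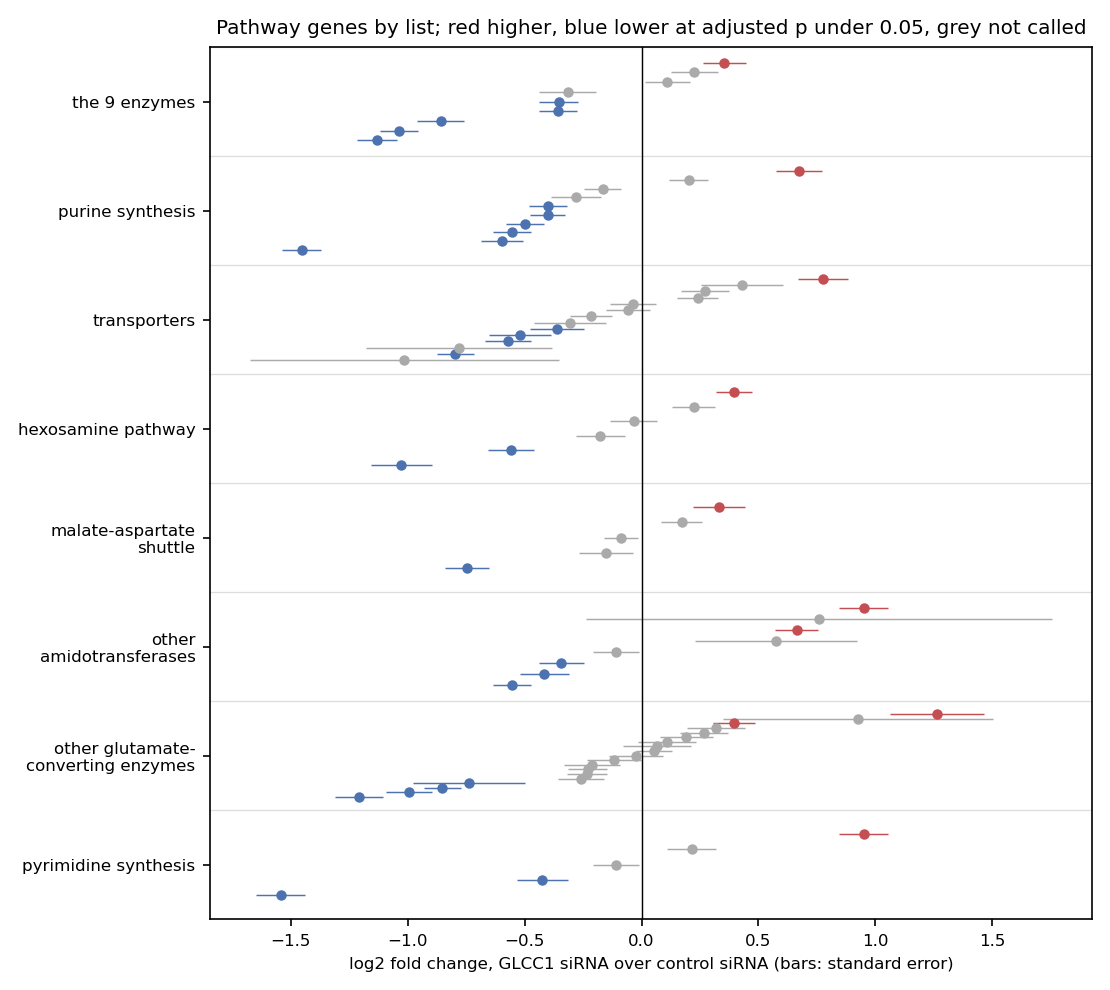
Log2 fold change (x axis, GLCC1 siRNA over control siRNA, with standard error) of each tested gene, grouped by list, with genes of adjusted p under 0.05 in red (higher) or blue (lower). The 9 enzymes run from -1.13 (GLUL) to 0.35 (GMPS), and each pathway list holds genes called in both directions.

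The members were next searched for words that can pair with the seed region of GLCC1 siRNA 1, at the 5′ end of its guide strand, because a transfected siRNA can lower mRNAs that it matches only there. The 7-base word ACCTTGA pairs with guide bases 2 to 8, the 7-base word CCTTGAA with the bases 1 to 7, and the 8-base word ACCTTGAA joins them. They were searched for on the mRNA strand of the 3′ UTR of the canonical GENCODE transcript. GLUL, GLUD1, GFPT1 and GMPS held at least 1 word, 4 of the 9 members, whereas GLS2, GOT1, GOT2, PPAT and CAD held none. Of these 4, GLUL, GLUD1 and GFPT1 were lower and GMPS was higher after GLCC1 siRNA. Of the members without a word, GOT2 and CAD were lower as well, and GLS2, GOT1 and PPAT did not pass the test. Of all 11342 genes averaging 1 CPM or more and given a 3′ UTR by the annotation, 21.2% held a word and 4.37% the 8-base word. Their median log2 fold change was -0.17 with a word and -0.03 without. Long 3′ UTRs hold more words by their length. The 3′ UTR of GLUL has 6307 bases, that of GFPT1 6409 and that of GMPS 6328, and among the 2259 genes with a 3′ UTR of 0.5 to 2 times the length of that of GLUL, 48.2% held a word and 11.1% the 8-base word. In that set the median log2 fold change was -0.09 with a word and 0.05 without. Windows of 30 bases around each word of these 4 members and of GLUD2 are shown, with the word in capitals. Coordinates are hg19, and the sequences read 5′ to 3′ on the mRNA strand.
GLUL word 1 (chr1:182352930-182352959, minus strand): tggatatccctACCTTGAAagaagaaaagg
GLUL word 2 (chr1:182349229-182349258, minus strand): ataatcccagcACCTTGAgaggccgaggca
GLUD1 (chr10:88810889-88810918, minus strand): taacaagcctaACCTTGActcaaacagtga
GLUD2 (chrX:120183794-120183823, plus strand): taacaagcctaACCTTGActcagtgaatgc
GFPT1 word 1 (chr2:69553236-69553265, minus strand): ttgtatttaaaACCTTGAtttaaaatatca
GFPT1 word 2 (chr2:69553216-69553245, minus strand): taaaatatcaccCCTTGAAgccttttttta
GMPS word 1 (chr3:155661168-155661197, plus strand): aggaagcctaaACCTTGAgcagtatcttat
GMPS word 2 (chr3:155661272-155661301, plus strand): cattgttaacaACCTTGAtattaaacgaag
GLUL was the only member with the 8-base word, at base 592 of its 3′ UTR in exon 7 of 7, and all 5 of its coding transcripts contain that site, whereas its second word, at base 4293, is in 1 of 5. The words of GFPT1 begin at bases 67 and 88 of 6409, in each of its 4 coding transcripts. The word of GLUD1 is at base 601 of 1549, and GLUD2 carries it as well. In GMPS the words are at bases 5698 and 5802 of 6328, and 1 of its 2 coding transcripts contains them. Whether these words or their places have a part in the changes was not tested. The labels give siRNA1 in the genotype entry of all 6 libraries, whereas the titles run from siRNA1 to siRNA3 in each group. Which of the GLCC1 siRNAs of the study was sequenced is not stated. Words for the other GLCC1 siRNA were not searched.

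Other genes followed nearly the same course as GLUL. Likeness was measured as the root mean square difference between the log2 CPM of both genes over the 6 libraries, each taken relative to its own mean, among 10376 other genes that averaged 10 CPM or more. The nearest were C5orf51 (0.033), NUP50 (0.035), KLF9 (0.036), CFL2 (0.037) and RTN4 (0.042), with log2 fold changes between -1.16 and -1.10. Of the 4 whose 3′ UTR could be matched, CFL2, KLF9 and RTN4 held a seed word and NUP50 held none. Among all genes the share was 21.2%, and among those with a 3′ UTR of 0.5 to 2 times the length of that of GLUL 48.2%. The 3′ UTR of RTN4, at 967 bases, lies outside that range of lengths. These genes were picked by their course in these same libraries, so the count is a description. Whether the words have a part in their fall was not tested. The genes nearest to PPAT were GEN1, ALKBH2, SOS2, UTP18 and STK39, at 0.017 to 0.029. As a point of comparison, MYC itself had 155, 140.1 and 151 CPM in the controls and 118, 89.1 and 112 CPM in the GLCC1 siRNA libraries, a smaller fall than those of GLUL, GLUD1 and GFPT1.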

How the data were processed

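The authors mapped paired-end reads to hg19 with TopHat 2.0.11 and deposited, for each gene symbol, unnormalized counts made with HTSeq in union mode, 1 file per library. The strand setting and HTSeq version are not given in the sources used here. The members and all gene lists were chosen with earlier results of these data known, so no list count is independent support. Libraries were grouped by title.

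After the rule of the study, a gene was kept if the libraries of at least 1 group held 5 counts together, and HTSeq's tallies of unassigned reads were left out of library sizes (11.2% to 14.2% of read pairs on no gene and 8.19% to 8.89% ambiguous). Counts were scaled with TMM factors and compared with the robust quasi-likelihood test of edgeR 4.0.16 (R 4.3.3), with Benjamini-Hochberg adjustment over 23074 genes. Called means an adjusted p under 0.05. CPM uses TMM library sizes, in which 1 read pair is worth between 0.0521 and 0.0795 CPM. Ratios of 2 genes within a library were compared with a two-sided exact permutation test. Named beside the members were at most 3 called genes per list and direction with a mean of at least 1 CPM, copies of members, ratio partners, the nearest genes to GLUL and PPAT, and FARP1, LDHA and MYC. MDH1 and SLC1A5 were followed further after their values were seen. A gene that was left out of the lists is not reported here.

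Alternatives were DESeq2 1.42.0, DESeq2 size factors, library totals, filters of 1 count in any library and 10 in all libraries, a replicate block, at least 2-fold, and each library left out. Library pairs of 1 group differed by a chi-square per degree of freedom of 1.93 to 19.0, so none is a copy. The fits were tested on simulated data. Positions and 3′ UTRs are from GENCODE 44 on hg19, and promoter sequences from RefSeq (GRCh38.p14). The seed words rest on an siRNA sequence read from a page image, whose target stands in the GLCC1 sequence of a separate spreadsheet of the study.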

Additional observations from a re-analysis of the deposited data

How the results depend on the processing

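Over 12 alternative analyses, none of the 9 members changed direction, and GLUL, GLUD1, GFPT1, GOT2, CAD and GOT1 also kept their side of the threshold in all of them. GLS2 passed with a filter of 1 count in any library (log2 fold change -0.32) and PPAT with library totals as the only normalization (0.35). With single libraries left out, the log2 fold change of GLS2 was between -0.39 and -0.20, that of PPAT between 0.13 and 0.30 and that of GMPS between 0.28 and 0.42, where GLS2 passed without GLCC1 siRNA replicate 2, PPAT without GLCC1 siRNA replicate 3, and GMPS failed without control siRNA replicate 2. The cause was not tested. Of the 6 members called, 2 (GLUL and GLUD1) also changed at least 2-fold. Of 348 values of 29 other genes named in the text, 328 kept direction and side of the threshold and 0 changed direction.

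Libraries of equal number in both groups did not deviate together (mean correlation of their deviations -0.15 over 3 pairs, 0.07 over 6 other pairs, across genes). Deviations were taken from the mean of each group of 3, so the pairs depend on each other and cannot exclude a pairing by number. With the replicate block, 6522 genes were called in place of 7293 and each member stayed on its side of the threshold. Calls over all genes ranged from 5221 to 9920 with single libraries left out, the most without GLCC1 siRNA replicate 2. The 3 libraries a group limit what can be shown for changes as small as those of GLS2, PPAT and GOT1.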
